A study of Saccharomyces cerevisiae with 27 samples.

Results

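The comparison described here asked whether the transcriptome of a yeast strain with a 40-gene plasmid array differed from its control by the same amount in ethanol/glycerol as in galactose. It was the interaction (LCY002 minus LCY001 in ethanol/glycerol) minus (LCY002 minus LCY001 in galactose), taken from the expected read counts per gene of 12 of the 27 RNA-seq libraries of the study. All strains derive from BY4741, a haploid laboratory strain of Saccharomyces cerevisiae with the alleles his3Δ1 leu2Δ0 met15Δ0 ura3Δ0. LCY001 carries in addition a centromeric plasmid with the HIS3 marker (CEN-HIS3) and served as the control. LCY002 carries the same kind of plasmid with HIS3 and the gene array, which holds 9 genes of galactose use, 17 of glycolysis and 14 of ergosterol synthesis. Each of the 4 groups (LCY002 in ethanol/glycerol, LCY001 in ethanol/glycerol, LCY002 in galactose, LCY001 in galactose) had 3 libraries from individual colonies, grown overnight without histidine and then in the named carbon source to log phase. The promoters on the array, the plasmid copy number and the orientation of the genes are not given in the sources used here, and each chromosomal copy was still present, so the reads of plasmid and chromosomal copies were counted together. Fewer transcripts per cell and fewer transcript-bearing cells cannot be told apart in such bulk samples.

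Galactose is taken up by a permease encoded by GAL2 and turned into glucose phosphate by the enzymes of GAL1, GAL7, GAL10 and PGM2. The activator Gal4 switches GAL1, GAL2, GAL7 and GAL10 on only when Gal3, bound to galactose, relieves it of the inhibitor Gal80. Without galactose these GAL genes are nearly silent. Ethanol and glycerol are respired instead: cells then make sugar phosphates by gluconeogenesis, and mitochondrial respiration, whose enzymes hold heme and iron-sulfur clusters, supplies the energy. A positive interaction below means that LCY002 exceeded LCY001 by more (or fell short of it by less) in ethanol/glycerol than in galactose, and a negative one means the reverse.

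The 12 libraries held 14484847 to 16035597 counts each, so that 3 counts were worth about 0.2 CPM (counts scaled to the size of the library). Spearman correlations between replicates were 0.99 to 0.998 across genes, and no replicates agreed within sampling noise. One library stood apart from its group. In replicate 2 of LCY001 in galactose, 62 of 5402 genes with a group mean of at least 5 CPM lay 1.5 times or more above or below both other replicates, against 1 to 7 genes in each of the other 11 libraries. Many of the named results that moved with this library are given with and without it. Other interactions that moved were those of HSP30 (-2.41, and -2.94 without it), RGI2 (2.08 and 1.65), HAP4 (-1.37 and -1.67) and HXK2 (-0.71 and -0.96). All of these kept their calls, whereas the endoplasmic reticulum gene ERO1 lost its call without the library (edgeR adjusted p = 0.141). Among the a-cell markers STE2, STE6 and BAR1 were detected in all 12 libraries and the pheromone genes MFA1 and MFA2 were at 0 in all of them. The deleted genes LEU2, URA3 and MET17 had no counts. Genes of alpha cells made up 0.00931% to 0.0133% of the counts of a library and meiotic genes 0.0176% to 0.0271%, both highest in LCY002 in ethanol/glycerol. Values in CPM were scaled by trimmed means (TMM). Scaled by total counts instead, the median strain difference over all genes in galactose moved from 0.00 to -0.13 on the log2 scale. The array genes took 13.8% to 14.2% of the counts of LCY002 in galactose and 7.33% to 8.27% of those of LCY001.

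The difference between LCY002 and LCY001 was unequal in the 2 media for a large share of the transcriptome, mostly by small amounts. A departure of either strain enters this comparison, so the counts below are not a measure of the array alone. Of 5692 genes tested, 2481 (43.6%) passed the test of the interaction, 1090 of them (19.1%) higher and 1391 (24.4%) lower (edgeR quasi-likelihood test, Benjamini-Hochberg adjusted p under 0.05). The median absolute interaction over all genes was 0.19 on the log2 scale, and 158 of the genes called reached a 2-fold interaction, 91 upward and 67 downward. LCY002 differed from LCY001 at 3404 genes (59.8%, with 29.4% higher and 30.4% lower) in ethanol/glycerol. In galactose it differed at 2176 (38.2%, with 20.2% higher and 18.1% lower). This contrast between the media depended on the scaling: with total counts as the scale the numbers were 3446 and 3309. The libraries of the strains did not overlap for 66.1% of all genes in ethanol/glycerol and for 46.7% in galactose, so a lack of overlap at a single gene is common. Among the genes with an interaction, 180 were called higher in LCY002 in ethanol/glycerol and lower in galactose, and 205 had the opposite pair of calls. A further 566 were called higher and 681 lower in ethanol/glycerol alone, and 202 higher and 184 lower in galactose alone. Another 221 were higher in both media and 160 lower in both, by unequal amounts, and 82 passed neither test alone. Read the other way, the change from galactose to ethanol/glycerol was called at 4381 genes (77%) in LCY002 and at 4076 (71.6%) in LCY001, and at 203 of the genes with an interaction it went in opposite directions in the 2 strains.

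**Figure D1:**
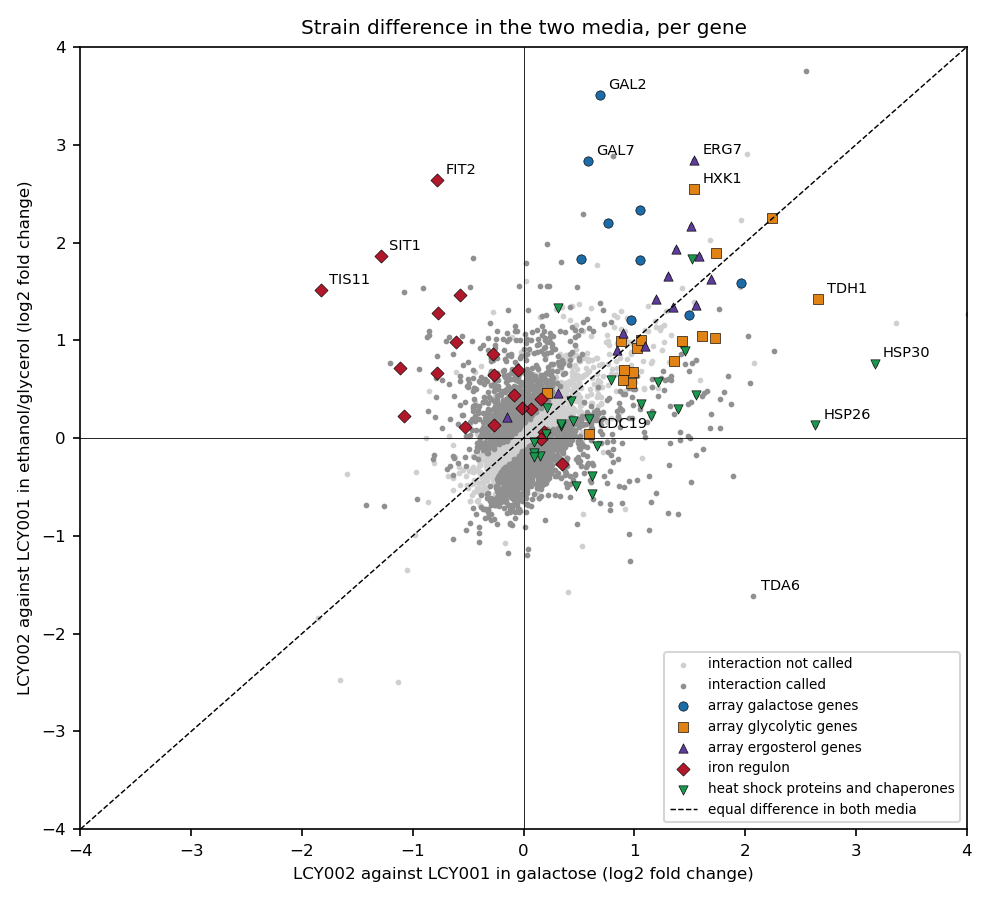
Each point is 1 gene, placed by its log2 fold change of LCY002 against LCY001 in galactose (x axis) and in ethanol/glycerol (y axis); the dashed line marks equal differences, and 8 genes lie outside the axes. Iron regulon genes (red diamonds) such as FIT2, SIT1 and TIS11 lie at the upper left, and HSP26, HSP30, TDH1 and TDA6 lie far below the line.

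Most of the galactose genes of the array were raised by more in ethanol/glycerol than in galactose. All 9 were higher in LCY002 than in LCY001 in both media, with a median log2 difference of 1.83 in ethanol/glycerol and 0.97 in galactose. The interaction was positive for 7 of the 9 and negative for GAL4, with a median of 1.28 against -0.02 over all genes tested. GAL7, the uridylyltransferase of the pathway (chromosome II, 274427 to 275527), measured 15.8, 17.8 and 17.6 CPM in LCY002 and 2.27, 2.85 and 2.04 CPM in LCY001 in ethanol/glycerol. The same gene measured 10175, 10195 and 10629 CPM in LCY002 in galactose, and 6379, 7494 and 6851 CPM in LCY001. The strains did not overlap in either medium, and even the raised level in ethanol/glycerol stayed far under that in galactose. Its interaction was 2.25 ± 0.20 (SE, n = 3 per group; edgeR adjusted p = 2.94e-09). The permease gene GAL2 measured 16.5, 14.3 and 14.5 CPM in LCY002 in ethanol/glycerol, against 1.64, 2.34 and 0 CPM in LCY001. The LCY001 values rest on few reads, and the interaction of 2.82 ± 0.48 (edgeR adjusted p = 0.000109) ranged from 2.23 to 3.49 as single libraries were left out.

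Regulators of the pathway differed among themselves. GAL80, the inhibitor of Gal4 (chromosome XIII, 171594 to 172901), measured 463, 482 and 470 CPM in LCY002 and 90.7, 95.8 and 94.2 CPM in LCY001 in ethanol/glycerol. The galactose values were 900, 878 and 886 CPM in LCY002, and 417, 450 and 418 CPM in LCY001. Its excess in LCY002 was thus 2.33 on the log2 scale in ethanol/glycerol and 1.05 in galactose, an interaction of 1.28 ± 0.06 (edgeR adjusted p = 5.85e-15). The sensor gene GAL3 had an interaction of 1.31 ± 0.10 (edgeR adjusted p = 2.42e-10) and the galactokinase gene GAL1 one of 1.44 ± 0.13 (edgeR adjusted p = 4.06e-09). GAL4 itself, which is expressed in both media, was raised by about as much in each, by 1.26 in ethanol/glycerol and 1.49 in galactose. Its interaction of -0.22 was past the threshold only narrowly (edgeR adjusted p = 0.0495), lost the call in 10 of 12 fits without 1 library and was 0.04 with BY4741 as the control. PGM2, the major phosphoglucomutase, had an interaction of -0.37 that did not pass (edgeR adjusted p = 0.213). In galactose PGM2 measured 232, 392 and 224 CPM in LCY001 but 929, 977 and 948 CPM in BY4741, and its interaction was -0.68 (edgeR adjusted p = 0.00163) without replicate 2 of LCY001 and 1.18 with BY4741 as the control. GAL1, GAL10, GAL4 and GLK1 overlap another annotated feature or carry a transcript that the submitters added, which makes their counts less certain.

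A Gal4 site, spelled CGGNNNNNNNNNNNCCG and searched on both strands of the 500 bases before each gene start, was present for 7 of the 9 galactose genes of the array (77.8%) and for 2.96% of all 5978 genes with a window. Below are stretches before 3 of the genes with a positive interaction, read from the reference genome R64, 5′ to 3′ on the strand of the gene, with matches in capitals. They belong to the chromosomal copies. The stretch of GAL7 is chrII:275688-275734 (minus strand), that of GAL2 chrXII:289781-289915 (plus strand), where 4 matches fall close together and the last ones overlap, and that of GAL80 chrXIII:171407-171453 (plus strand).
GAL7: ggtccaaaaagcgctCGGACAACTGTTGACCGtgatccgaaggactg
GAL2: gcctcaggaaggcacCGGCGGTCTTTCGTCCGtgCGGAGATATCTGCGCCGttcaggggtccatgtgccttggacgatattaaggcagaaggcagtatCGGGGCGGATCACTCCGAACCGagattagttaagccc
GAL80: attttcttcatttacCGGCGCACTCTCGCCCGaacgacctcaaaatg

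**Figure D2:**
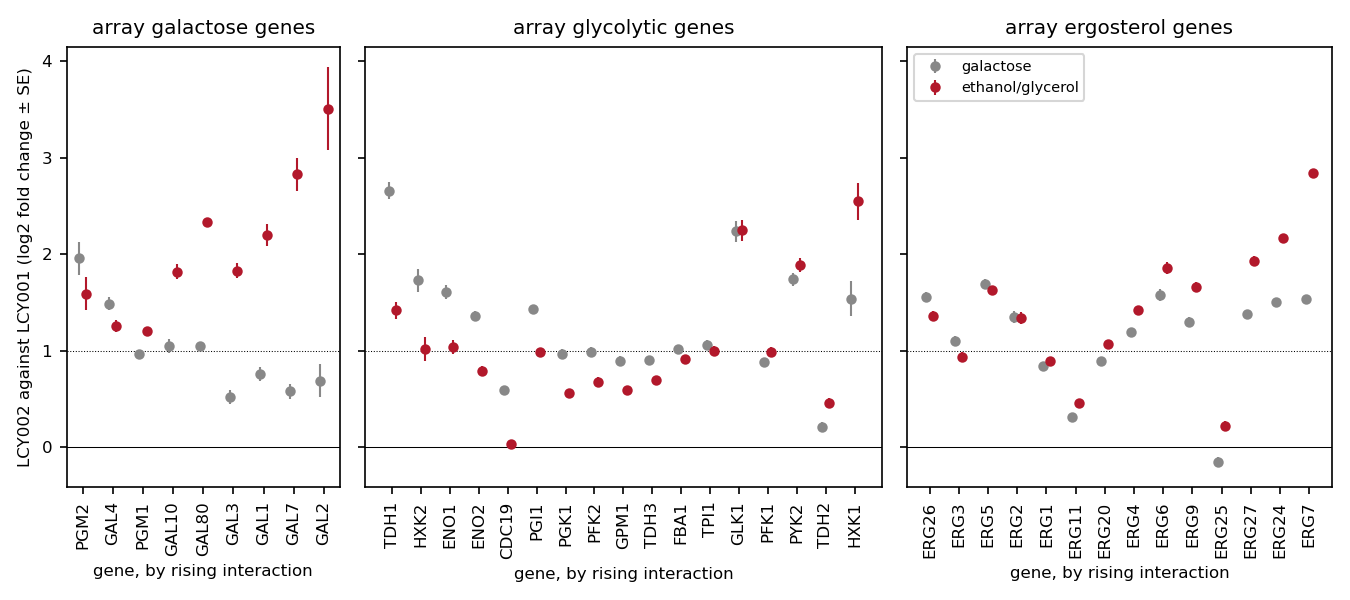
Log2 fold change of LCY002 against LCY001 (± SE, 3 libraries per group) for the 40 array genes in galactose (grey) and in ethanol/glycerol (red), ordered within each module by rising interaction; the dotted line at 1 marks a doubling. The red points lie well above the grey ones for GAL2, GAL7, HXK1 and ERG7 and below them for TDH1, HXK2, ENO1 and CDC19.

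Glycolytic genes of the array leaned the other way: 10 of 17 had a negative interaction, 2 a positive one and 5 (FBA1, TPI1, GLK1, PFK1 and PYK2) did not pass the test. The median was -0.31, from a median excess in LCY002 of 0.99 in ethanol/glycerol and 1.06 in galactose. TDH1, one of 3 genes for glyceraldehyde-3-phosphate dehydrogenase (chromosome X, 338271 to 339269), measured 5126, 5078 and 5425 CPM in LCY002 and 1857, 2026 and 1960 CPM in LCY001 in ethanol/glycerol. In galactose the values were 3569, 3060 and 2875 CPM in LCY002 and only 438, 597 and 468 CPM in LCY001. The control thus made far less TDH1 transcript in galactose than in ethanol/glycerol, while LCY002 kept a high level in both, and the interaction was -1.24 ± 0.13 (edgeR adjusted p = 6.28e-08). Because the TDH genes are similar in sequence, their summed level was also compared, and it exceeded that of LCY001 by 0.79 in ethanol/glycerol and 0.97 in galactose on the log2 scale. For the enolase genes ENO1 and ENO2 summed, the excess was 0.94 and 1.44, and each gene alone had an interaction of -0.57.

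The pyruvate kinase gene CDC19 was the 1 glycolytic gene of the array that was not called in ethanol/glycerol, with 3968, 3829 and 3882 CPM in LCY002 and 3753, 3842 and 3804 CPM in LCY001. In galactose it was raised, with 7998, 7677 and 7926 CPM against 5128, 5227 and 5335 CPM. Its interaction was -0.55 ± 0.06 (edgeR adjusted p = 1.61e-07). The hexokinase genes HXK1 and HXK2 moved in opposite directions. HXK1 measured 2240, 2346 and 2615 CPM in LCY002 against 411, 419 and 403 CPM in LCY001 in ethanol/glycerol, and 4147, 4006 and 3643 CPM against 1085, 1930 and 1053 CPM in galactose. The odd value of 1930 belongs to replicate 2 of LCY001, without which the interaction of HXK1 fell from 1.01 to 0.67 and was still called (edgeR adjusted p = 0.00307). HXK2 had an interaction of -0.71 (edgeR adjusted p = 0.00163), which with BY4741 as the control was -0.22 and not called (edgeR adjusted p = 0.297). TDH2 was the other gene with a positive value, 0.25 ± 0.07 (edgeR adjusted p = 0.00826).

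In the ergosterol module 8 of 14 genes had a positive interaction, ERG26 had a negative one and ERG1, ERG2, ERG3, ERG5 and ERG11 did not pass. Without replicate 2 of LCY001 in galactose ERG26 (-0.18, edgeR adjusted p = 0.0619) lost the call and ERG3 (-0.20, edgeR adjusted p = 0.0341) gained one. The median was 0.19, from 1.39 in ethanol/glycerol and 1.32 in galactose. ERG7, which encodes lanosterol synthase (chromosome VIII, 239098 to 241293), stood out from the module. It measured 1054, 1056 and 1052 CPM in LCY002 in ethanol/glycerol against 152, 147 and 144 CPM in LCY001. Galactose cultures had 511, 497 and 515 CPM against 184, 162 and 179 CPM. The control levels were similar in both media, so the larger difference in ethanol/glycerol lay in LCY002, and the interaction was 1.30 ± 0.05 (edgeR adjusted p = 3.29e-15). ERG24, the C-14 sterol reductase gene, followed with 0.66 ± 0.06 (edgeR adjusted p = 7.35e-09) and ERG27, the 3-keto reductase gene, with 0.55 ± 0.06 (edgeR adjusted p = 2.26e-07). ERG25, the C-4 methyl oxidase gene, was an exception in level: 286, 278 and 267 CPM in LCY002 against 238, 235 and 239 CPM in LCY001 in ethanol/glycerol, and 233, 244 and 244 CPM against 285, 238 and 277 CPM in galactose. It was the 1 array gene called lower in LCY002 in galactose, by -0.15 (edgeR adjusted p = 0.0318). The 11 sterol genes outside the array had a median of 0.05, with 4 called higher (HMG1, ERG13, ERG10 and HMG2) and 2 lower (ERG29 and ERG8). Of 15 genes for sterol regulation, uptake and esterification, ECM22, AUS1, SUT2 and MOT3 were called higher by 0.44 to 0.48 and YEH2 was called lower. The shares of all genes tested were 19.1% higher and 24.4% lower.

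The plasmid marker HIS3 was lower in LCY002 than in LCY001 in both media, and by more in galactose. It measured 647, 666 and 647 CPM in LCY002 in ethanol/glycerol against 1060, 1095 and 999 CPM in LCY001, and in galactose 432, 449 and 433 CPM against 1206, 1052 and 1254 CPM. The log2 differences were -0.69 and -1.42, and the interaction was 0.73 ± 0.07 (edgeR adjusted p = 2.87e-08). BY4741, which carries no plasmid, had 44.7 to 48.7 CPM of HIS3 reads in ethanol/glycerol and 26.0 to 29.1 CPM in galactose. With that strain as the control the interaction of HIS3 was -0.17 and did not pass (edgeR adjusted p = 0.107).

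Genes of the iron regulon had the 3 highest positive interactions outside the array among the genes named by rule. The regulon of the activator Aft1 brings iron into the cell through cell wall mannoproteins (FIT genes), siderophore transporters (ARN1, ARN2, SIT1, ENB1), reductases (FRE genes) and the oxidase and permease pair Fet3 and Ftr1. Of 21 members, 17 had a positive interaction, AFT2 a negative one, and FRE2, FIT1 and SMF3 did not pass. The list median was 0.91, from 0.64 in ethanol/glycerol, where 15 members were called higher in LCY002, and -0.28 in galactose, where 13 were called lower. The summed share of the list in a library was 0.258% to 0.284% in LCY002 and 0.153% to 0.159% in LCY001 in ethanol/glycerol. In galactose the order turned, with 0.184% to 0.214% in LCY002 and 0.375% to 0.415% in LCY001. The groups did not overlap in either medium (exact two-sided permutation tests of 3 against 3 libraries cannot give a p below 0.10).

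FIT2 (chromosome XV, 1059531 to 1059992) encodes a cell wall mannoprotein that retains siderophore iron. It measured 449, 449 and 548 CPM in LCY002 in ethanol/glycerol, against 65.5, 82.5 and 83.6 CPM in LCY001. In galactose FIT2 measured 55.4, 59.3 and 58.0 CPM in LCY002 and 84.5, 103 and 109 CPM in LCY001. The LCY002 libraries were therefore all above the control in ethanol/glycerol and all below it in galactose, and the interaction was 3.42 ± 0.23 (edgeR adjusted p = 7.88e-10). TIS11 (chromosome XII, 415801 to 416658) encodes a protein that binds and destabilises mRNAs of iron-using enzymes when iron is short. Its values were 30.1, 32.1 and 35.9 CPM in LCY002 against 11.2, 11.6 and 11.6 CPM in LCY001 in ethanol/glycerol. In galactose they were 20.1, 28.0 and 28.2 CPM against 85.9, 70.9 and 113 CPM. The order of the strains reversed here too, with an interaction of 3.33 ± 0.42 (edgeR adjusted p = 3.87e-06). SIT1 (chromosome V, 27657 to 29543), a siderophore transporter gene, measured 188, 204 and 191 CPM in LCY002 against 53.9, 49.0 and 57.2 CPM in LCY001 in ethanol/glycerol. In galactose SIT1 measured 100, 127 and 130 CPM against 282, 244 and 347 CPM. Its interaction was 3.15 ± 0.37 (edgeR adjusted p = 1.71e-06).

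The heme oxygenase gene HMX1 (2.05 ± 0.20) and FIT3 (2.03 ± 0.18) showed the same reversal of order between media. FET3, the multicopper oxidase gene, measured 426, 461 and 496 CPM in LCY002 against 275, 285 and 280 CPM in LCY001 in ethanol/glycerol, and 595, 679 and 719 CPM against 1387, 1416 and 1516 CPM in galactose. Its interaction was 1.83 ± 0.26 (edgeR adjusted p = 1.27e-05). In the control FET3 was thus higher in galactose than in ethanol/glycerol, and in LCY002 the step between the media was smaller. With BY4741 as the control the list median was 0.53, with 12 members called higher and 2 lower. That comparison called 44.7% of all genes, 19.5% higher and 25.2% lower. The BY4741 libraries in galactose disagreed among themselves on these genes: TIS11 measured 36.9, 9.75 and 37.2 CPM and SIT1 measured 190, 63.2 and 200 CPM, with replicate 2 low in both, and FIT2 measured 44.1, 39.5 and 76.5 CPM. Both comparisons use the same LCY002 libraries.

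The core of the Aft1 site, GCACCC, was found on either strand of the 500 bases before the start for 18 of the 21 iron genes (85.7%) and for 7.61% of all genes with a window. Each motif was counted on its own, so that a window could hold several. The stretches with the matches before the 3 genes of largest interaction are given 5′ to 3′ on the strand of the gene from R64, with both orientations of the core in capitals. They are chrXV:1059185-1059303 (plus strand) for FIT2, which shows 3 of its 5 matches, chrV:27454-27489 (plus strand) for SIT1 and chrXII:416811-416921 (minus strand) for TIS11.
FIT2: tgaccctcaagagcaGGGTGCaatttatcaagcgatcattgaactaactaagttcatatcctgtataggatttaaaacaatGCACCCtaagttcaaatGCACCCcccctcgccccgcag
SIT1: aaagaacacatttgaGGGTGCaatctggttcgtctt
TIS11: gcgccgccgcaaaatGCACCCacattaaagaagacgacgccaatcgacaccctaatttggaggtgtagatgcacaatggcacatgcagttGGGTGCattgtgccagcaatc

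**Figure D3:**
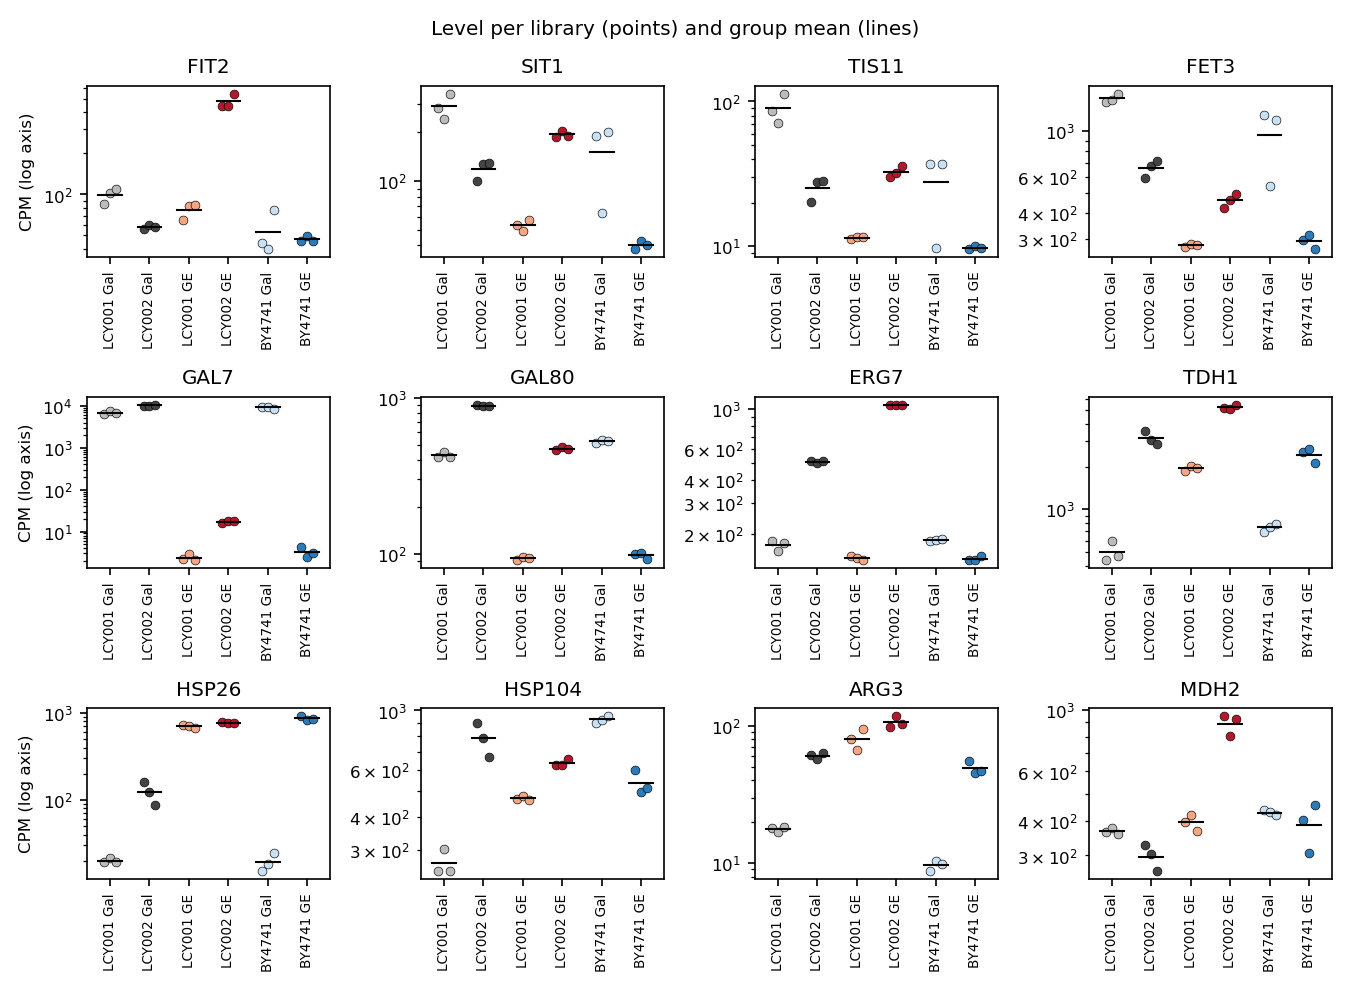
Level in CPM (log axis) of 12 genes in every library (points) with the group mean (line), for LCY001, LCY002 and BY4741 in galactose (Gal) and ethanol/glycerol (GE). For FIT2, SIT1, TIS11 and FET3 the LCY002 points lie below the LCY001 points in galactose and above them in ethanol/glycerol; for HSP104 BY4741 in galactose (898 to 955 CPM) lies far above LCY001 in galactose (249 to 302 CPM).

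Genes for growth on nonfermentable carbon were raised in LCY002 relative to the control more in ethanol/glycerol than in galactose. Of 15 genes of gluconeogenesis and the glyoxylate cycle, 12 had a positive interaction and ICL2 and PYC2 a negative one, with a median of 0.48. Without replicate 2 of LCY001 in galactose 1 gene was called lower. MDH2, the cytosolic malate dehydrogenase gene, measured 950, 801 and 923 CPM in LCY002 against 396, 420 and 366 CPM in LCY001 in ethanol/glycerol, and 326, 303 and 263 CPM against 365, 376 and 357 CPM in galactose. Its groups did not overlap in either medium, and the interaction was 1.48 ± 0.13 (edgeR adjusted p = 1.88e-08). The acetate transporter gene ADY2 followed with 1.35 ± 0.20 (edgeR adjusted p = 8.92e-06), from 37.8 to 42.1 CPM against 12.1 to 14.6 CPM in ethanol/glycerol and about 5 CPM in both strains in galactose. JEN1, the lactate and pyruvate transporter gene, and FBP1, for the fructose bisphosphatase of gluconeogenesis, had interactions of 1.22 ± 0.10 and 1.15 ± 0.10 (edgeR adjusted p = 3.65e-10 and 3.28e-09), both from higher levels in ethanol/glycerol and lower ones in galactose. Against BY4741, 7 members were called higher and 2 lower, with a median of 0.21. Among 12 genes of ethanol and glycerol use the count was 5 higher and 2 lower, beside 19.1% and 24.4% of all genes. The aldehyde dehydrogenase gene ALD6 led with 1.13 ± 0.23. In galactose ALD6 measured 423, 447 and 415 CPM in LCY002 and 901, 478 and 952 CPM in LCY001, so replicate 2 of LCY001 lay near LCY002, and the interaction was 1.39 without that library and 0.23 (not called, edgeR adjusted p = 0.424) with BY4741 as the control.

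The nuclear genes of the respiratory chain and ATP synthase moved together by small steps: 29 of 35 had a positive interaction and none a negative one. The list median was 0.40, from 0.15 in ethanol/glycerol and -0.22 in galactose, where 21 members were called lower in LCY002. COX8, a cytochrome c oxidase subunit gene, measured 333, 339 and 301 CPM in LCY002 against 238, 247 and 243 CPM in LCY001 in ethanol/glycerol, and 107, 107 and 115 CPM against 148, 136 and 137 CPM in galactose. Its strains did not overlap and changed order between the media, with an interaction of 0.78 ± 0.08 (edgeR adjusted p = 6.54e-08). COX5A, another subunit gene of the same oxidase, had 0.74 ± 0.06 (edgeR adjusted p = 2.47e-10). Set against BY4741, 31 members were called higher and none lower, with a median of 0.55, and without replicate 2 of LCY001 in galactose 25 were called higher and 1 lower. In the tricarboxylic acid cycle 9 of 16 members were called higher, led by the ketoglutarate dehydrogenase gene KGD1 (0.52 ± 0.07), and 1 was called lower, or 3 without replicate 2 of LCY001 in galactose. The list median was 0.22. Of 18 genes for fatty acid oxidation and the carnitine shuttle, 8 were called higher, among them the thiolase gene POT1 (0.98 ± 0.14), the catalase gene CTA1 (0.86 ± 0.09) and the carnitine carrier gene CRC1 (0.85 ± 0.14), and OAF1 was called lower. PEX11 of that list had counts only in LCY001 in ethanol/glycerol and 0 in the other 3 groups, and no fold is given for it.

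The regulators of these genes did not move as 1 group. CAT8 and ADR1, activators of gluconeogenic and ethanol genes, had interactions of 0.68 ± 0.12 and 0.85 ± 0.08, whereas HAP4, which encodes the limiting subunit of the activator of respiratory genes, had -1.37 ± 0.20 (edgeR adjusted p = 1.84e-05). HAP4 measured 669, 726 and 754 CPM in LCY002 against 731, 719 and 779 CPM in LCY001 in ethanol/glycerol, where the strains overlapped. In galactose it measured 752, 663 and 692 CPM against 239, 387 and 219 CPM. Galactose-grown BY4741 had 603, 671 and 620 CPM of HAP4, close to LCY002 and not to LCY001. Its interaction relative to BY4741 was -0.10 and not called (edgeR adjusted p = 0.726). In all, 3 of the 15 regulators were called higher (CAT8, ADR1 and REG1) and 5 lower (HAP4, HAP3, MIG2, MIG1 and SNF4). These counts are not far from the shares of all genes, 19.1% higher and 24.4% lower.

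Amino acid synthesis genes had negative interactions nearly throughout, because LCY002 exceeded LCY001 by more in galactose than in ethanol/glycerol. All 9 arginine genes, 8 of 9 lysine genes and all 6 histidine genes other than HIS3 were called lower, and none of these lists had a member called higher. The medians were -0.93 for arginine, -0.52 for lysine and -0.57 for histidine. ARG3, the ornithine carbamoyltransferase gene (chromosome X, 268799 to 269815), measured 97.4, 118 and 102 CPM in LCY002 and 79.8, 66.2 and 94.5 CPM in LCY001 in ethanol/glycerol, where the strains lay close without overlap. In galactose it measured 61.2, 57.0 and 63.2 CPM in LCY002 and 18, 16.9 and 18.4 CPM in LCY001. The gap between the strains was thus wider in galactose, and the interaction was -1.37 ± 0.15 (edgeR adjusted p = 2.94e-07). The argininosuccinate synthetase gene ARG1 had -1.34 ± 0.06 (edgeR adjusted p = 6.76e-15). LYS20, for homocitrate synthase, had -1.18 ± 0.07 and HIS4, a multifunctional histidine enzyme gene, -1.12 ± 0.08 (edgeR adjusted p = 2.81e-12 and 1.28e-10). Relative to BY4741 the calls kept their direction with larger values at all 4 genes named here, for example -2.72 for ARG1 and -1.68 for HIS4, and the counts were 9 of 9 arginine, 8 of 9 lysine and 6 of 6 histidine genes called lower.

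Other amino acid lists leaned the same way, with 9 of 12 branched-chain genes, 13 of 15 aromatic genes and 12 of 23 genes of sulfate assimilation and methionine synthesis called lower. The exceptions were BAT2, the cytosolic branched-chain aminotransferase gene (0.83 ± 0.07), TRP1 (0.54 ± 0.07) and the genes SUL1, MET6 and MET8, all called higher. ARO9, an aromatic aminotransferase gene of amino acid breakdown, had the largest value of these lists. It measured 324, 342 and 340 CPM in LCY002 against 529, 503 and 549 CPM in LCY001 in ethanol/glycerol. In galactose it measured 69.4, 65.0 and 73.7 CPM against 32.7, 32.0 and 28.8 CPM. The order of the strains reversed without overlap, and the interaction was -1.81 ± 0.09 (edgeR adjusted p = 6.34e-14). ARO10, the decarboxylase gene of the same breakdown pathway, had -1.35 ± 0.09 with the same reversal.

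The site of the activator Gcn4, spelled TGACTC, was found on either strand of the 500 bases before the start for 100% of the arginine genes, 83.3% of the histidine genes, 83.3% of the branched-chain genes and 44.4% of the lysine genes, against 12.6% of all genes. It was also found for 73.3% of the purine genes, whose median interaction was 0.04 with 10 of 15 not called, for 40% of the aromatic genes and for 39.1% of the sulfate and methionine genes. The stretch before ARG3, the arginine gene with values given here, is chrX:268346-268381 (plus strand, 1 of its 2 matches), given 5′ to 3′ on the strand of the gene from R64 with the match in capitals.
ARG3: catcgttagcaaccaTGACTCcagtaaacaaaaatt

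Heat shock and chaperone genes leaned the same way, with a larger excess in LCY002 in galactose than in ethanol/glycerol. Of 26 members, 19 had a negative interaction and SSA3 had a positive one, with a median of -0.37. The strain medians were 0.18 in ethanol/glycerol and 0.60 in galactose. In ethanol/glycerol 16 members were called higher in LCY002 and 6 lower, and in galactose 22 were called higher. Over all genes 29.4% and 20.2% were called higher. HSP26, a small heat shock protein gene (chromosome II, 382030 to 382674), measured 783, 758 and 776 CPM in LCY002 and 726, 706 and 679 CPM in LCY001 in ethanol/glycerol. In galactose HSP26 measured 161, 124 and 87.7 CPM against 19.2, 21.6 and 19.5 CPM. The strain gap was wide in galactose and narrow in ethanol/glycerol, with an interaction of -2.49 ± 0.25 (edgeR adjusted p = 2.94e-07), and with BY4741 as the control it was -2.85. Other members depended on which control was used. HSP104, the disaggregase gene, measured 900, 788 and 667 CPM in LCY002 and 249, 302 and 250 CPM in LCY001 in galactose, but 898, 924 and 955 CPM in BY4741. Its interaction was -1.12 ± 0.12 (edgeR adjusted p = 2.34e-07) with LCY001 and 0.48 (edgeR adjusted p = 0.0027) with BY4741. HSP30, a plasma membrane stress protein gene, went from -2.41 to 0.43, and the list as a whole had 3 members called higher and 14 lower with BY4741. The palindromic heat shock element GAANNTTC was present in the 500 bases before 57.7% of the list and before 19.1% of all genes.

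The result for genes of glycogen and trehalose depended on the control. With LCY001 as the control, GLG2 was called higher and 5 of 18 lower (GAC1, TSL1, GDB1, GSY2 and NTH2). The other 12 were not called, and the median was -0.12. Over all genes 19.1% were called higher and 24.4% lower, so the list showed no clear lean. With BY4741, 14 were called higher and 1 lower, with a median of 0.64, against 19.5% and 25.2% of all genes. TSL1, the large subunit gene of trehalose synthase, measured 184, 207 and 197 CPM in LCY001 and 718, 683 and 708 CPM in BY4741 in galactose, on either side of the 387 to 535 CPM of LCY002. Among 21 genes of oxidative stress defence, 2 were called higher (CTA1 and GLR1) and 6 lower, and the cytosolic catalase gene CTT1 went from -1.14 with LCY001 to 0.77 with BY4741.

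Ribosome genes were lower in LCY002 relative to the control in ethanol/glycerol than in galactose. Of 30 cytosolic ribosomal protein genes 29 were called lower and none higher, with a median of -0.33, from -0.22 in ethanol/glycerol and 0.12 in galactose. With total counts as the scale 23 were called lower, with a median of -0.25. That scale also moved the median strain difference over all genes in galactose from 0.00 to -0.13, so the 0.12 depends on the scaling. In ethanol/glycerol the share of the list in the unscaled counts was 2.73% to 2.80% in LCY002 and 3.29% to 3.35% in LCY001, without overlap. In galactose it was 3.91% to 3.95% and 3.89% to 4.05%, with overlap. RPL8A, a large subunit protein gene, measured 631, 604 and 618 CPM against 818, 776 and 845 CPM in ethanol/glycerol, and its interaction was -0.57 ± 0.07 (edgeR adjusted p = 1.25e-06). Of 28 genes for ribosome biogenesis and RNA polymerase I, 21 were called lower and none higher, with a median of -0.37. RPA135, the second largest subunit gene of that polymerase, measured 270, 259 and 248 CPM in LCY002 against 422, 371 and 447 CPM in LCY001 in ethanol/glycerol, and 484, 480 and 499 CPM against 507, 463 and 475 CPM in galactose. The strains were called different in ethanol/glycerol (-0.67) and not in galactose (0.02, edgeR adjusted p = 0.842), and the interaction was -0.69 ± 0.08 (edgeR adjusted p = 3.37e-07). In the comparison with BY4741, 9 of 30 ribosomal protein genes were called lower and none higher, with a median of -0.14. That count is near the share of all genes called lower there, 25.2%. Of the biogenesis genes 18 of 28 were called lower and none higher, with a median of -0.32. The motif GATGAG, known as PAC, was present in the 500 bases before 92.9% of the biogenesis genes and 28.3% of all genes.

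Sugar handling outside the array changed at single genes. Of 15 hexose transporter genes tested, 6 were called higher, among them HXT2, HXT10 and HXT5, and HXT4 and HXT7 were called lower. HXT10 lost its call in 1 of the fits without 1 library (edgeR adjusted p = 0.0665). Of all genes tested 19.1% were called higher and 24.4% lower, so the lower calls of this list are no more common than elsewhere. HXT4 measured 13.9, 15.3 and 12.8 CPM in LCY002 against 26.6, 19.9 and 25.2 CPM in LCY001 in ethanol/glycerol, and 37.4, 38.8 and 38.4 CPM against 16.2, 19.0 and 11.5 CPM in galactose. The order of the strains reversed without overlap, with an interaction of -2.07 ± 0.35 (edgeR adjusted p = 9.12e-05). PFK27, for an enzyme that makes the glycolytic activator fructose 2,6-bisphosphate, had -2.22 ± 0.32, and -2.65 without replicate 2 of LCY001 in galactose. Of 9 fermentation genes 5 were called lower (ADH5, PDC5, PDC1, ADH4 and ADH1) and ALD6 higher, with a median of -0.25, beside the same shares of all genes.

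The lowest interaction outside the array among called genes of at least 5 CPM in a group belonged to TDA6, a gene of poorly known function. It measured 17, 19.5 and 27.5 CPM in LCY002 against 66.0, 68.5 and 62.8 CPM in LCY001 in ethanol/glycerol, and 102, 94.5 and 117 CPM against 18.1, 39.1 and 17.5 CPM in galactose. Its interaction was -3.69 ± 0.34 (edgeR adjusted p = 9.74e-08), -4.17 without replicate 2 of LCY001 in galactose and -2.23 with BY4741 as the control. After TDA6, HSP26 and HSP30 the lowest values were those of YRO2 (-2.28), PFK27, VHS1 (-2.17), HXT4, CIP1 (-2.07), YLR297W (-1.97), INM1 (-1.93), ARO9 and PEX21 (-1.76). On the other side, after the iron genes FIT2, TIS11 and SIT1, stood GTO3, a glutathione transferase gene (2.58 ± 0.20), and the biotin precursor transporter gene BIO5 (2.44 ± 0.22). They were followed by ENA1, the sodium pump gene (2.30 ± 0.26), and RGI2, a gene linked to energy metabolism under respiration (2.08 ± 0.32). RGI2 measured 68.7, 77.5 and 73.4 CPM in LCY002 against 9.79, 9.08 and 10.8 CPM in LCY001 in ethanol/glycerol and stayed under 5 CPM in both strains in galactose. GCY1, a glycerol dehydrogenase gene, had 2.02 ± 0.59 (edgeR adjusted p = 0.0125), but its LCY001 libraries in ethanol/glycerol measured 17.4, 20.2 and 0.127 CPM. Only replicate 3 was near 0, and with BY4741 as the control the interaction of 1.31 was not called (edgeR adjusted p = 0.0651). NRG2, a glucose repressor gene, and the kinase gene RCK1 completed the set with 1.90 each. RCK1 lay under 9 CPM in all 12 libraries.

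**Figure D4:**
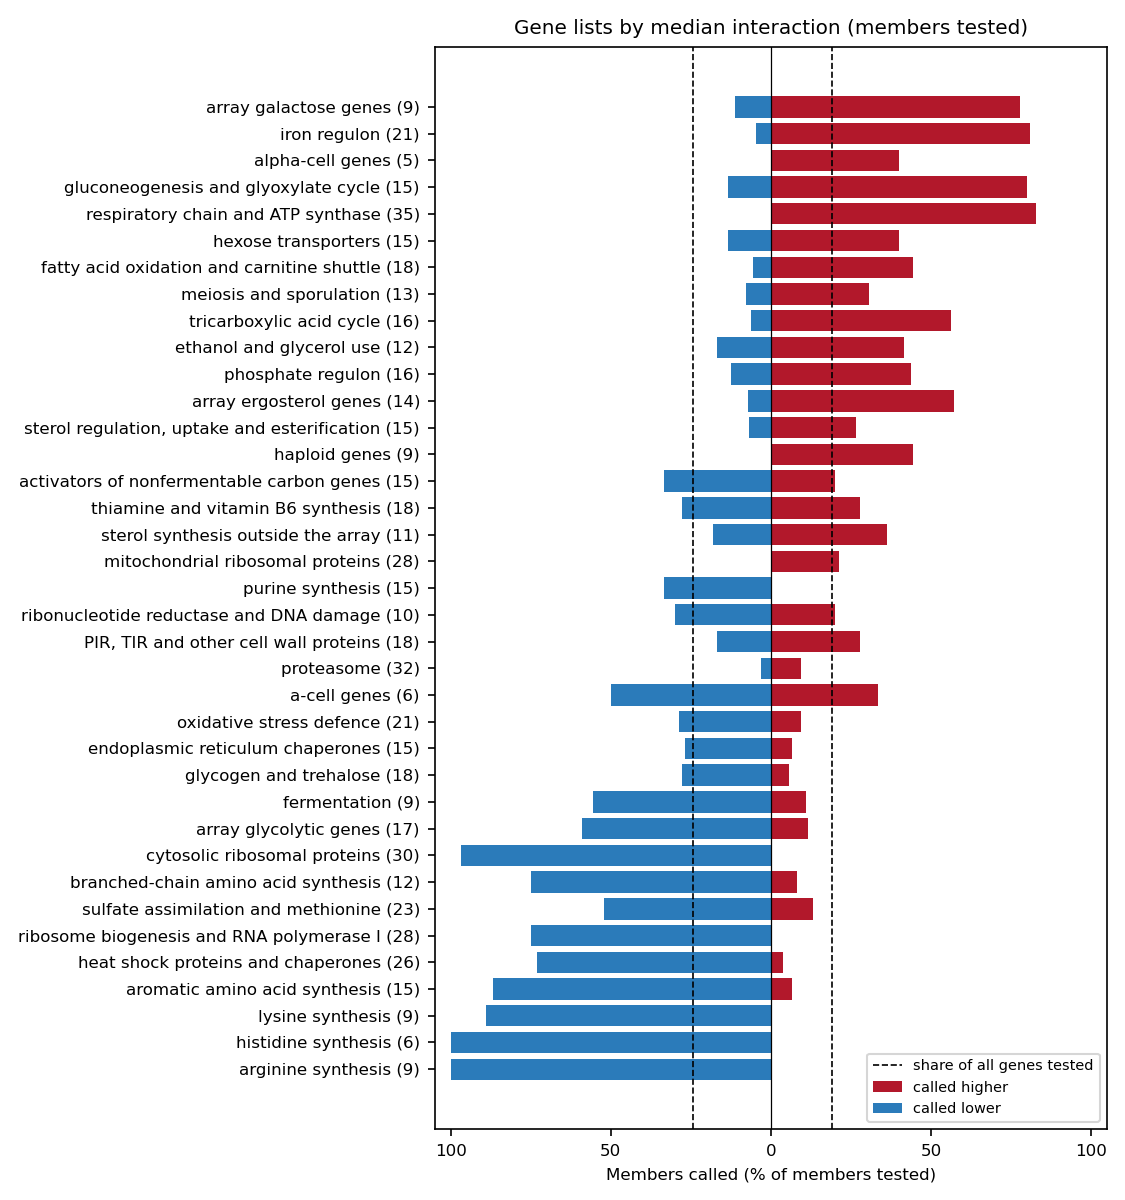
Share of the tested members of each gene list called higher (red, to the right) or lower (blue, to the left) in the interaction, with the number tested in parentheses; dashed lines mark the shares of all genes tested, 19.1% higher and 24.4% lower. The higher calls cover most of the iron (17 of 21), gluconeogenesis (12 of 15) and respiratory chain (29 of 35) lists, and the lower calls cover all 9 arginine, all 6 histidine and 29 of 30 ribosomal protein genes.

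Of 32 proteasome genes 3 were called higher and PRE1 lower, with a median of -0.03, and PRE1 lost its call without replicate 2 of LCY001 in galactose (edgeR adjusted p = 0.068). Of 28 mitochondrial ribosomal protein genes 6 were called higher and none lower, with a median of 0.05, and without replicate 2 of LCY001 in galactose 2 were. Of 15 purine genes 5 were called lower (IMD4, ADE12, GUA1, ADE3 and IMD3) and none higher. Without that library 4 purine genes were called higher and 3 lower, and GUA1 (edgeR adjusted p = 0.0495) lost its call in 11 of 12 fits without 1 library. Of 15 endoplasmic reticulum chaperone genes 4 were called lower and HRD1 higher, of 18 cell wall genes 5 higher and 3 lower, and of 10 genes for ribonucleotide reductase and DNA damage 2 higher (1 without that library) and 3 lower. For comparison, 19.1% of all genes tested were called higher and 24.4% lower. The higher calls of the mitochondrial ribosomal list, the lower calls of the chaperone list and both counts of the DNA damage list are near these shares.

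**Figure D5:**
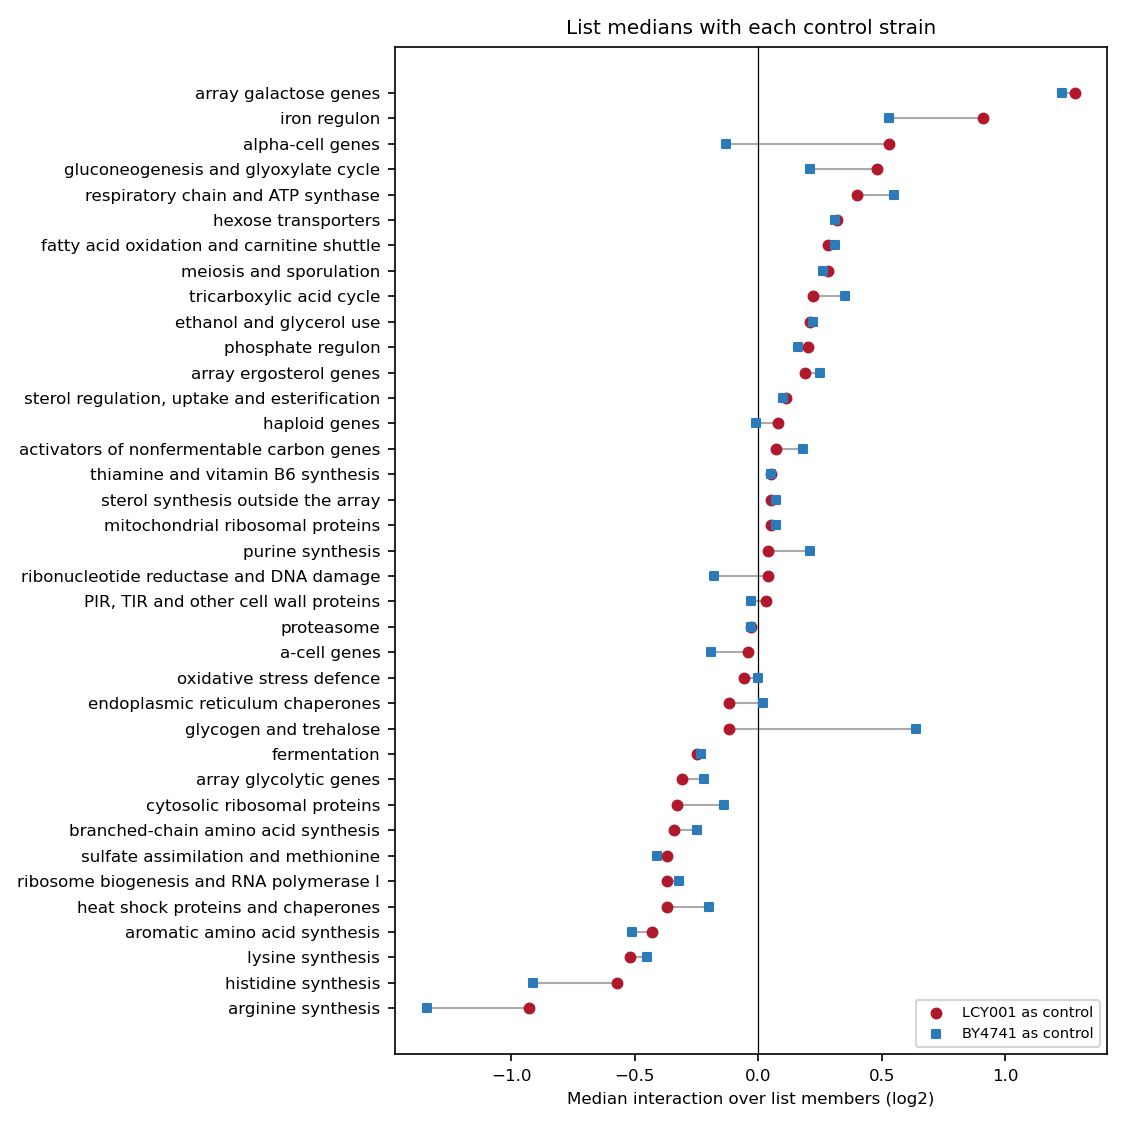
Median interaction (log2) over the members of each list with LCY001 (red circles) and with BY4741 (blue squares) as the control; both use the same LCY002 libraries. The medians lie close for most lists, those of the arginine and histidine lists are lower with BY4741, and the glycogen and trehalose list moves from -0.12 to 0.64. With BY4741 the iron list falls from 0.91 to 0.53, the gluconeogenesis list from 0.48 to 0.21 and the alpha-cell list from 0.53 to -0.13.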

How the data were processed

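RNA-seq of 27 libraries was used, of which 12 enter the interaction. The processing notes of the submitters name RSEM 1.2.8, Bowtie2 2.2.5, HISAT2 2.1.0 and the genome build R64; the roles of the tools and the strandedness of the counting are not given in the sources used here. The authors deposited 1 table per library with expected counts per gene, which can be fractions because reads shared between transcripts are split; they were rounded to whole numbers. A deposited FPKM table of all libraries was not used. Of 5995 genes in the tables, 5980 matched the R64 annotation by gene ID and 15 did not. Genes with a transcript added by the submitters or overlapping another annotated gene (369, of which 110 were called) are treated as uncertain.

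Genes with low counts were removed with filterByExpr, leaving 5692, libraries were scaled by TMM, and 1 mean per group was fitted over all 27 libraries with edgeR 4.0.16 (R 4.3.3, robust quasi-likelihood F test). Dispersion across genes came to 0.00278 (coefficient of variation 0.0527). P-values were adjusted over all genes tested by the method of Benjamini and Hochberg, and a gene was called at an adjusted p under 0.05. The SE was derived from the F statistic. CPM use TMM-scaled library sizes. The script was tested on simulated data. Precision is set by 3 libraries per group and 14484847 to 16035597 counts per library. Colonies were separate, but growth, extraction and sequencing batches are not given, and the p-values measure the spread between these libraries. A replicate number did not pair libraries (correlations of same-numbered libraries from -0.35 to 0.29 over 18 pairs), so no pairing entered the fit.

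Members, lists and rules were chosen with earlier results of these data known, so a list's count is a description. The genes named are HIS3 and, in each array module, the 4 highest and 4 lowest interactions; outside the array the 12 highest and 12 lowest among called genes of at least 5 CPM in a group that do not overlap between strains in a medium and are not uncertain; the 8 strongest genes in each direction with opposite calls in the 2 media; and up to 4 called members per list with the largest absolute interaction. GAL80, CDC19, FET3, the genes named as not called, and the members that make up counts of 5 or fewer were named after their values were seen. Motifs were counted in the 500 bases before each start, on R64. Alternatives were DESeq2 1.42.0, other scalings and filters, the 12 libraries alone, replicate blocks, BY4741 (no plasmid) in place of LCY001, and each library left out. BY4741 lacks HIS3, and its growth without histidine is stated in the labels but not explained.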

Additional observations from a re-analysis of the deposited data

Results flagged for a closer look

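The genes below were flagged because LCY002 was called above LCY001 in one medium and below it in the other, and the interaction itself was called (edgeR, adjusted p under 0.05). Higher in LCY002 in ethanol/glycerol and lower in galactose were FIT2 (interaction 3.42 on the log2 scale), TIS11 (3.33), SIT1 (3.15), GTO3 (2.58), BIO5 (2.44), YJL107C (1.94), NRG2 (1.90) and NRG1 (1.62). YJL107C is uncertain in its counts, because it overlaps another annotated gene or carries an added transcript. Lower in ethanol/glycerol and higher in galactose were TDA6 (-3.69), PFK27 (-2.22), VHS1 (-2.17), CIP1 (-2.07), HXT4 (-2.07), INM1 (-1.93), AST1 (-1.53) and DSE4 (-1.35). With BY4741 as the control 15 of these 16 kept the call of the interaction, and NRG1 had 0.43 (edgeR adjusted p = 0.147). That count does not cover the opposite calls in the 2 media. For FIT2, TIS11 and SIT1 the LCY002 libraries in galactose overlapped those of BY4741. In galactose NRG1 measured 63.0, 32.4 and 65.1 CPM in LCY001 and 32.7, 33.2 and 27.7 CPM in LCY002, so that replicate 2 of LCY001 lay with LCY002; without it the interaction was 1.88. Replicate 2 also lay between the other LCY001 libraries and LCY002 for TDA6, PFK27, VHS1 and CIP1, whose interactions without it were -4.17, -2.65, -2.51 and -2.34.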

How the results depend on the processing

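The number of genes called in the interaction was 2469 with RLE size factors, 2459 with total counts as the scale, 2470 with TMM without the array genes, 2468 with no filter on low counts, 2405 with DESeq2, 2379 with the 12 libraries alone, 2547 with BY4741 as the control and 2164 to 2501 with 1 library left out. The similar total with BY4741 hides a change of genes. Of the 2481 calls made with LCY001, 1716 (69.2%) were called in the same direction with BY4741, and 31 in the opposite one. A replicate block gave 2443 calls and a block within strain 2366, and neither reversed a named gene. Total counts moved the split: 63.4% of calls were higher, against 43.9%. Genes called lower then numbered 899, and the ergosterol median was 0.28. Calls between strains numbered 3446 in ethanol/glycerol and 3309 in galactose on that scale. With 1 library left out, genes called higher ranged from 939 to 1111 and lower from 1198 to 1390, calls in ethanol/glycerol from 3002 to 3453 and in galactose from 1736 to 2189. Array genes called higher ranged from 17 to 18 and lower from 10 to 13, and the medians from 0.06 to 0.12 (all), 1.25 to 1.30 (galactose), -0.33 to -0.26 (glycolysis) and 0.18 to 0.20 (ergosterol). With BY4741 as the control the median was 0.23 over all array genes and 0.25 for ergosterol. That control kept the call of 132 of 171 named called genes, ended it for 25 and reversed the sign of 14, and 2 uncalled genes changed sign with it; the other settings kept 162 to 171 and reversed none. The values that turned were HIS3 -0.17, PGM2 1.18, GAL4 0.04, ERG3 0.29, HSP30 0.43, HSP104 0.48, GAC1 0.52, TSL1 1.12, GDB1 0.65, CTT1 0.77, OAC1 0.39, GUA1 0.11, SPI1 0.79, ERO1 0.11, GPA1 -0.21 and HOP1 0.01; the cause was not tested. GAL2 and GAL7 in LCY001 in ethanol/glycerol, RGI2 in galactose and RCK1 rest on few reads.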

Other observations

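The counts in this section stand beside 19.1% of all genes called higher and 24.4% called lower. In the thiamine and vitamin B6 list both counts are not far from these shares. Of 16 phosphate genes 7 were called higher and 2 lower, led by PHO89, a sodium phosphate cotransporter gene, with 1.75 ± 0.24 (edgeR adjusted p = 4.63e-06). PHO89 measured 89.1, 86.8 and 69.0 CPM in LCY002 against 15.7, 19.1 and 15.3 CPM in LCY001 in ethanol/glycerol, and 13.1, 13.4 and 11.1 CPM against 9.50, 5.63 and 10.6 CPM in galactose. The strains were far apart in ethanol/glycerol and close in galactose. GIT1, for a glycerophosphoinositol transporter, had 0.95 ± 0.20 and the high-affinity transporter gene PHO84, whose counts are uncertain, 0.83 ± 0.10. PHM8, a nucleotide phosphatase gene, had -1.46 ± 0.10 and PHO5 was the other gene called lower. In the thiamine and vitamin B6 list 5 of 18 genes were called higher and 5 lower: the vitamin B6 pair SNZ1 and SNO1 had -0.99 ± 0.15 and -0.75 ± 0.11, whereas SNZ2, a paralog of SNZ1, had 0.62 ± 0.11. With BY4741 as the control SNZ1 had -1.69 and SNZ2 had 0.66.

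Mating genes changed by small amounts from low or moderate levels. Their lists are short, and 19.1% of all genes were called higher and 24.4% lower. Among 6 a-cell genes tested 2 were called higher (ASG7 and BAR1) and 3 lower (STE6, AXL1 and STE2), and among 5 alpha-cell genes STE3 and AFB1 were called higher. STE3, the a-factor receptor gene of alpha cells, measured 31.5, 28.3 and 27.8 CPM in LCY002 against 19.1, 21.0 and 16.3 CPM in LCY001 in ethanol/glycerol, and 14.9 to 18.6 CPM in both strains in galactose. Its interaction was 0.77 ± 0.12 (edgeR adjusted p = 9.71e-06). Of 9 haploid genes 4 were called higher, with FAR1, a pheromone arrest gene, at 0.61 ± 0.10. GPA1 among them had 0.17, and -0.21 with BY4741 as the control. Against BY4741 no haploid gene was called higher and 2 were called lower. No a-cell gene was called higher in that comparison and 3 were lower, and the median of the alpha-cell genes was -0.13 instead of 0.53. The comparison with BY4741 called 19.5% of all genes higher and 25.2% lower. Of 13 meiotic genes 4 were called higher and HOP1 lower. The meiotic kinase gene IME2 led, with 26.4 against 13.2 CPM in ethanol/glycerol and 18.3 against 20.9 CPM in galactose (group means).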
